A study of Mus musculus with 26 samples.

Results

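The 6 actin genes and 4 tropomyosin genes of the mouse were followed by name through 26 RNA-Seq libraries of C2C12 cells. They were taken as gene families, with earlier results of these data known, and they are 10 of the 55341 genes that each library lists. Acta1 and Actc1 encode the striated muscle actins, named skeletal and cardiac α-actin. Acta2 and Actg2 encode the smooth muscle actins, Actb and Actg1 the cytoplasmic β- and γ-actin, and Tpm1, Tpm2, Tpm3 and Tpm4 the tropomyosins. The libraries compare cells with less or more of SMYD3, a lysine methyltransferase, before and during early muscle differentiation.

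C2C12 is an established line of mouse myoblasts that stops dividing, fuses into myotubes and builds sarcomeres when serum is withdrawn. The knockdown experiment had 18 libraries. Its cells had received a control siRNA (siCtrl), siSMYD3#1 or siSMYD3#2, with 3 replicates at 0 h and 3 at 24 h of differentiation for each. In the overexpression experiment there were 8 libraries, from SMYD3 CL5 cells and from cells that carried the empty pREV vector, with 2 replicates per time point. SMYD3 CL5 is 1 clone that expresses a Flag- and HA-tagged SMYD3 from the pREV retroviral vector, and the vector cells were also sub-cloned, so an effect of SMYD3 and a difference between clones cannot be told apart. The 0 h cells were confluent in growth medium, and the 24 h cells had been in serum-poor differentiation medium.

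Actin monomers polymerise into filaments, and tropomyosin dimers lie along these filaments and set which proteins can bind them. In non-muscle cells the filaments are built of β- and γ-actin, whereas in the sarcomere the thin filament is built of α-actin and is regulated by tropomyosin and troponin. Differentiating muscle replaces its cytoplasmic actins with striated ones over time, and embryonic skeletal muscle uses the cardiac as well as the skeletal isoform. Smooth muscle α-actin is also made in myofibroblasts and in immature striated muscle. Tpm1, Tpm2 and Tpm3 each give muscle and cytoskeletal proteins by alternative promoters and splicing, while Tpm4 is mainly cytoskeletal. The counts used here are per gene and merge all transcripts of a gene, so they do not separate the muscle from the cytoskeletal products of the tropomyosin genes.

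The muscle actin genes are classical targets of serum response factor, which binds the CArG box, and of the myogenic factors MyoD and myogenin, which bind E-boxes. RefSeq promoter windows of 300 bases (250 before and 50 after a start, GRCm38) were on hand for 8 of the 10 genes, all but Actb and Actg2, in 9 windows. A CArG box was found by letters in the windows of 3 genes, Acta1, Actc1 and Actg1, and in 1.63% of 32851 promoter windows of the same length. The stretches that hold these boxes are given here because a striated actin pair that rose strongly and a cytoplasmic actin that did not carry the same kind of box. Bases inside an annotated exon were left off, the sequence reads 5′ to 3′ in the direction of transcription, and capitals mark the CArG box.
Acta1, GRCm38 chr8:123894776-123894975, reverse strand: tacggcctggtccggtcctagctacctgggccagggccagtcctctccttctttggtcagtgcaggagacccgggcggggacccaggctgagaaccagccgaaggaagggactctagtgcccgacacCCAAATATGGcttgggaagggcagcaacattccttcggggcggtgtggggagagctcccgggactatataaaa
Actc1, GRCm38 chr2:114052888-114053075, reverse strand: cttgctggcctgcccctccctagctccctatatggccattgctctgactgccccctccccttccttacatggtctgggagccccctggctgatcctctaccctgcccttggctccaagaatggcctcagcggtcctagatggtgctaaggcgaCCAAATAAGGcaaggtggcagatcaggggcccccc
Actg1, GRCm38 chr11:120348543-120348677, reverse strand: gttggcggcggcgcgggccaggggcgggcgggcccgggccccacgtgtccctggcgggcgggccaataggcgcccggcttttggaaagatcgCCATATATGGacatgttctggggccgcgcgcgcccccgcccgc
The box began 73 bases before the RefSeq start in Acta1, 47 bases before it in Actc1 and 90 bases before it in Actg1. The E-box CAGCTG, read on both strands, was in the windows of Acta1, Acta2, Tpm2, Tpm3 and Tpm4 and in 16.3% of all windows. The wider E-box CANNTG, of which CAGCTG is a form, was in all 9 member windows and in 72.3% of all windows. TATAAA was found in the windows of Acta1 and Actc1 and in 13.6% of all. It began 7 bases before the RefSeq start in Acta1 and at base 34 after the start in Actc1. A MEF2 site was in 0 of the 9 windows and in 3.19% of all. CCCTCC and GAGGGG, 6-letter motifs whose matches can overlap, were each in windows of 7 members, against 39.2% and 32.9% of all windows. Such matches are descriptions of the letters in these windows only.

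Total counts ranged from 14315193 to 60398170 in the knockdown libraries and from 21124675 to 67853386 in the overexpression libraries, and the 10 genes took between 0.814% and 1.62% of them. Levels are given in CPM, the usual depth-normalized count, with library sizes scaled by TMM in each experiment on its own. Smyd3 itself was lower in the siSMYD3#2 libraries (log2 fold change -1.41 ± 0.16 at 0 h and -1.51 ± 0.17 at 24 h, SE, adjusted p = 0.000107 and 5.06e-05). In the libraries labelled siSMYD3#1 it was not past the threshold (-0.16 ± 0.16 and -0.24 ± 0.16, adjusted p = 0.785 and 0.414). In SMYD3 CL5 the mouse Smyd3 count was also not past the threshold (0.29 ± 0.27 and 0.36 ± 0.27, adjusted p = 0.593 and 0.671). The species of the tagged cDNA is not given in the sources used here, so this count may not hold its reads. In each siRNA condition 1 library was extracted with TRIzol and the other 2 with the NucleoSpin kit, and the TRIzol libraries also came from another passage and carried another replicate number, so these cannot be told apart. The TRIzol libraries stood apart in a sum of skeletal muscle markers: Myod1, Myf5, Myog and Des together were at 139 to 311 CPM in them and 961 to 1700 CPM in the NucleoSpin libraries. This gap was not shared by every marker. Over the knockdown libraries Des ranged from 67.3 to 1120 CPM at 0 h and from 91.8 to 1510 CPM at 24 h. Myf5 stayed at 58.9 to 90.9 and 66.2 to 110 CPM. The fit had extraction as a term, and where the NucleoSpin libraries alone gave another call this is stated. All 8 overexpression libraries were extracted with TRIzol, and their muscle marker sum was 443 to 800 CPM in vector cells and 752 to 1400 CPM in SMYD3 CL5. Of 4 smooth muscle markers 2 reached 1 CPM in any library. Over all libraries Smtn was at 62.9 to 156 CPM and Cnn1 at 0.302 to 16.0 CPM. Myh11 and Myocd stayed at or below 0.263 and 0.849 CPM. Endothelial and macrophage markers stayed at or below 0.32 and 0.158 CPM in sum, and of 3 cardiomyocyte markers 1 reached 1 CPM.

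A difference was called at an adjusted p under 0.01 in the quasi-likelihood test of edgeR, with p-values adjusted after Benjamini and Hochberg over the whole table, and every adjusted p is from this test unless another is named. Between 0 h and 24 h of differentiation in siCtrl cells, 5 of the 10 genes rose (Acta1, Actc1, Acta2, Tpm1 and Tpm2) and 2 fell (Actg1 and Tpm3). Of all 15820 genes tested in this comparison 29.4% were called, 14.6% as raised and 14.8% as lowered. With siSMYD3#1 the same comparison called 4 of the 10, all raised (Acta1, Actc1, Acta2 and Tpm1), against 12.7% of all genes called as raised. With siSMYD3#2 it called Acta1 and Actc1 as raised and Actg1 and Tpm3 as lowered, against 9.11% and 9.88% of all genes. Against siCtrl at 24 h, 3 of 10 were called for siSMYD3#1 (Acta1 and Actc1 lower, Actg1 higher, where 2.94% of all genes were lower and 2.91% higher, 5.85% in all). For siSMYD3#2, 2 of 10 were called (Actc1 and Tpm2 lower), where 2.04% of all genes were lower and 1.66% higher, 3.7% in all. The comparisons with siCtrl share the same siCtrl libraries, so their values stand side by side and are not independent of each other.

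**Figure D1:**
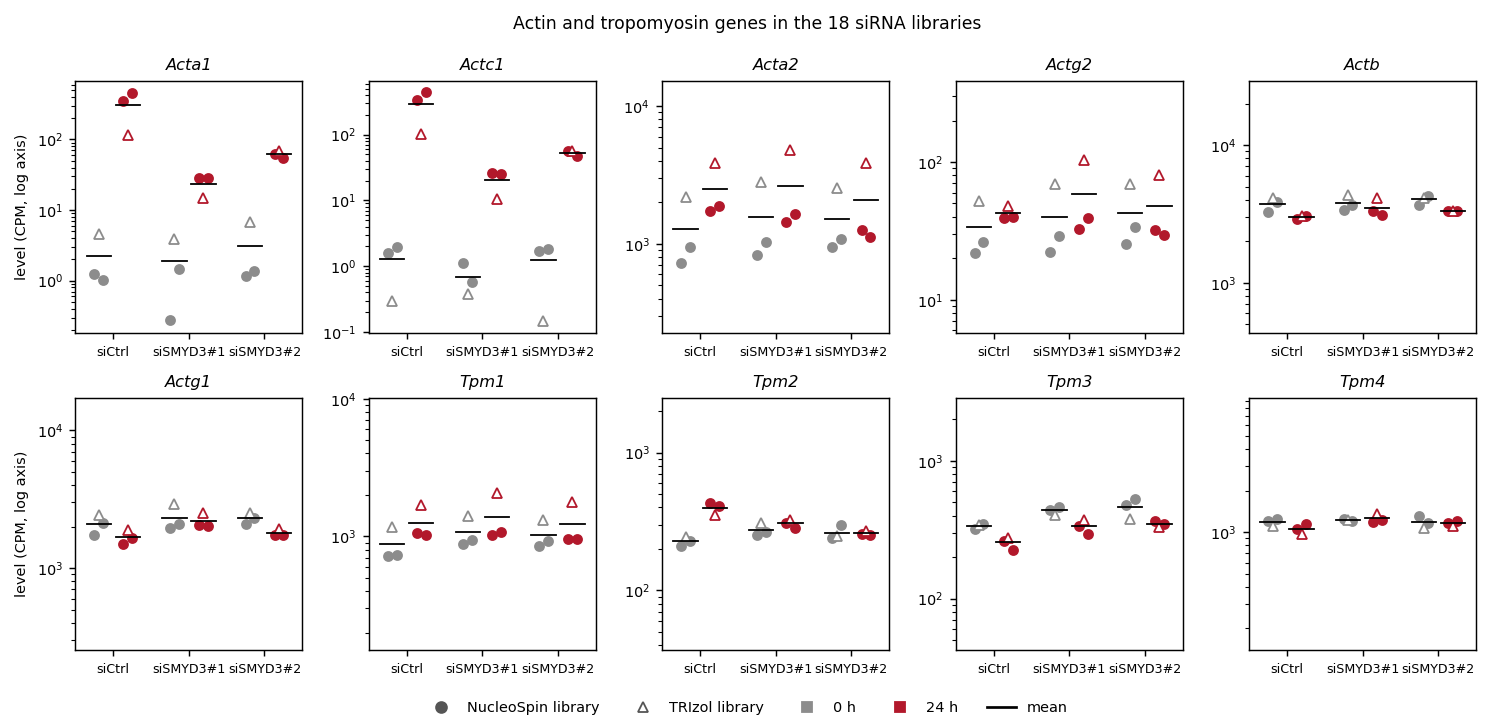
Level of each of the 10 genes in the 18 knockdown libraries (CPM, log axis) by siRNA and time point; each symbol is 1 library, its shape gives the extraction and the bar is the mean. Acta1 and Actc1 at 24 h lie above every 0 h library in all siRNAs, and highest in siCtrl, whereas Acta2, Actg2 and Tpm1 are higher in the TRIzol library of every condition.

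The striated actins had the largest changes of the 10 genes in every comparison of time. In siCtrl cells at 0 h, Acta1, on chromosome 8 (GRCm38 8:123891769-123894751, reverse strand), was at 1.24 and 1.03 CPM in the NucleoSpin libraries and 4.53 CPM in the TRIzol library. At 24 h it was at 354 and 456 CPM in the NucleoSpin libraries and at 115 CPM in the TRIzol library. The libraries of the 2 time points did not overlap, and Acta1 was higher at 24 h in 3 of 3 pairs of the same replicate number. The fitted rise was 159-fold (log2 fold change 7.31 ± 0.90, adjusted p = 4.3e-05). Actc1 (2:114047282-114053548, reverse strand) was at 1.61, 1.955 and 0.295 CPM at 0 h, the last in the TRIzol library with 8 counts, and at 338, 444 and 103 CPM at 24 h. Its rise was 208-fold (7.70 ± 0.51, adjusted p = 1.53e-07). Over the NucleoSpin libraries alone the log2 fold changes were 8.49 for Acta1 and 7.72 for Actc1 (adjusted p = 2.73e-11 and 2.97e-14).

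Both striated actins also rose in cells with either siRNA against Smyd3, to lower levels. With siSMYD3#1, Acta1 went from 0.272, 1.47 and 3.92 CPM to 28.2, 28.2 and 14.6 CPM (NucleoSpin, NucleoSpin, TRIzol; 12.7-fold, 3.67 ± 0.87, adjusted p = 0.00585). This call was lost (adjusted p = 0.0184 to 0.0282) when any of the 4 NucleoSpin libraries was left out. Actc1 went from 1.13, 0.578 and 0.372 CPM to 25.7, 25.05 and 10.5 CPM (28.1-fold, 4.82 ± 0.56, adjusted p = 3.01e-05). With siSMYD3#2, Acta1 went from 1.18, 1.39 and 6.76 CPM to 62.8, 55.2 and 69.3 CPM (22.9-fold, log2 fold change 4.515 ± 0.827, adjusted p = 0.00152), and the adjusted p was 0.0102 without 1 NucleoSpin library at 0 h. Actc1 went from 1.72, 1.81 and 0.145 CPM, the last from 3 counts, to 55.7, 46.7 and 57.2 CPM (49.3-fold, 5.62 ± 0.50, adjusted p = 6.61e-06). In none of these did a 0 h library reach the lowest 24 h library.

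At 24 h, Acta1 was 13.4-fold lower with siSMYD3#1 than with siCtrl (log2 fold change -3.75 ± 0.73, adjusted p = 0.00535) and Actc1 13.6-fold lower (-3.77 ± 0.40, adjusted p = 5.38e-05). The siSMYD3#1 and siCtrl libraries did not overlap for either gene, and the siSMYD3#1 value was lower in 3 of 3 same-numbered pairs. The Acta1 call was lost in 5 of 6 fits that left out 1 library (adjusted p = 0.0185 to 0.0241, log2 fold change -3.97 to -3.31), whichever was left out other than the siCtrl TRIzol library. Acta1 in the NucleoSpin libraries alone was lower by a log2 fold change of -3.84 (adjusted p = 1.78e-08). With siSMYD3#2, Actc1 was 4.45-fold lower (-2.15 ± 0.38, adjusted p = 0.00362), and Acta1 was 5.22-fold lower without passing the threshold (-2.38 ± 0.69, adjusted p = 0.0513). The Actc1 call was lost (adjusted p = 0.0156 to 0.0323) when any 1 of the 4 NucleoSpin libraries of the comparison was left out. Both genes passed in the NucleoSpin libraries alone, Acta1 at -2.78 (adjusted p = 4.73e-07) and Actc1 at -2.93 (adjusted p = 1.32e-09). The siSMYD3#2 TRIzol library was not lower than its NucleoSpin partners in Acta1 or Actc1, whereas the siCtrl TRIzol library was lower than its own.

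Set against each other at 24 h, the 2 siRNAs gave no call among the 10 genes, against 3.36% of all genes. At an unadjusted p under 0.05 there were 4 of the 10, against 22.2% of all genes, and DESeq2 called 0, against 7.7%. Actc1 was 3.07-fold lower with siSMYD3#1 than with siSMYD3#2 (-1.62 ± 0.38, adjusted p = 0.0203), and Acta1 2.58-fold lower (-1.37 ± 0.68, adjusted p = 0.269). Libraries of the 2 siRNAs did not overlap for either gene. Both differences passed the threshold in the NucleoSpin libraries alone (Actc1 -1.005 and Acta1 -1.06, adjusted p = 0.000107 and 0.00161).

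At 0 h none of the 10 genes was called with either siRNA, against 1.43% of all genes for siSMYD3#1 and 0.531% for siSMYD3#2. Of the 10, 3 and 2 were at an unadjusted p under 0.05, against 13.9% and 10.1% of all genes, and DESeq2 called 0 and 0, against 4.32% and 1.82%. For Acta1 the log2 fold change at 0 h was -0.11 ± 1.01 with siSMYD3#1 and 0.41 ± 0.95 with siSMYD3#2, and for Actc1 it was -0.88 ± 0.71 and -0.08 ± 0.60. The smallest adjusted p at 0 h were 0.0613 for Tpm1 with siSMYD3#1 (0.31 ± 0.09) and 0.0674 for Tpm3 with siSMYD3#2 (0.45 ± 0.11). Tpm3 passed in those of the NucleoSpin kit alone with siSMYD3#2 (0.59, adjusted p = 0.00339), as it did without the siSMYD3#2 TRIzol library at 0 h (0.60, adjusted p = 0.00882). For Acta1 and Actc1 at 0 h, a difference of the size of these standard errors could not be detected.

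The test of whether an siRNA's effect differed between 24 h and 0 h called 0 of the 10 genes for either siRNA, where it called 0.215% and 0.019% of all genes. An unadjusted p under 0.05 was found for 3 and 5 of the 10, against 8.77% and 10% of all genes, and DESeq2 called 1 in each, against 1.04% and 0.879%. For Acta1 the difference in effect was -3.64 ± 1.24 and -2.79 ± 1.16 on the log2 scale (adjusted p = 0.342 and 0.437), and for Actc1 it was -2.89 ± 0.89 and -2.08 ± 0.72 (0.266 and 0.315). Tpm2 came nearest to the threshold, at -0.65 ± 0.14 and -0.82 ± 0.14 (adjusted p = 0.0418 and 0.0239). In the NucleoSpin libraries alone Acta1, Actc1 and Tpm2 passed for both siRNAs, with -3.36, -2.91 and -0.74 for siSMYD3#1 (adjusted p = 0.00777, 0.000562 and 0.00799) and -2.98, -2.89 and -1.03 for siSMYD3#2 (0.00222, 2.5e-05 and 0.000718). Left out alone, the siCtrl TRIzol library at 24 h let Tpm2 pass for both siRNAs (-0.75 and -0.93, adjusted p = 0.00907 and 0.00289). Without the siSMYD3#2 TRIzol library at 24 h, Actc1 passed for siSMYD3#2 (-2.81, adjusted p = 0.0023).

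**Figure D2:**
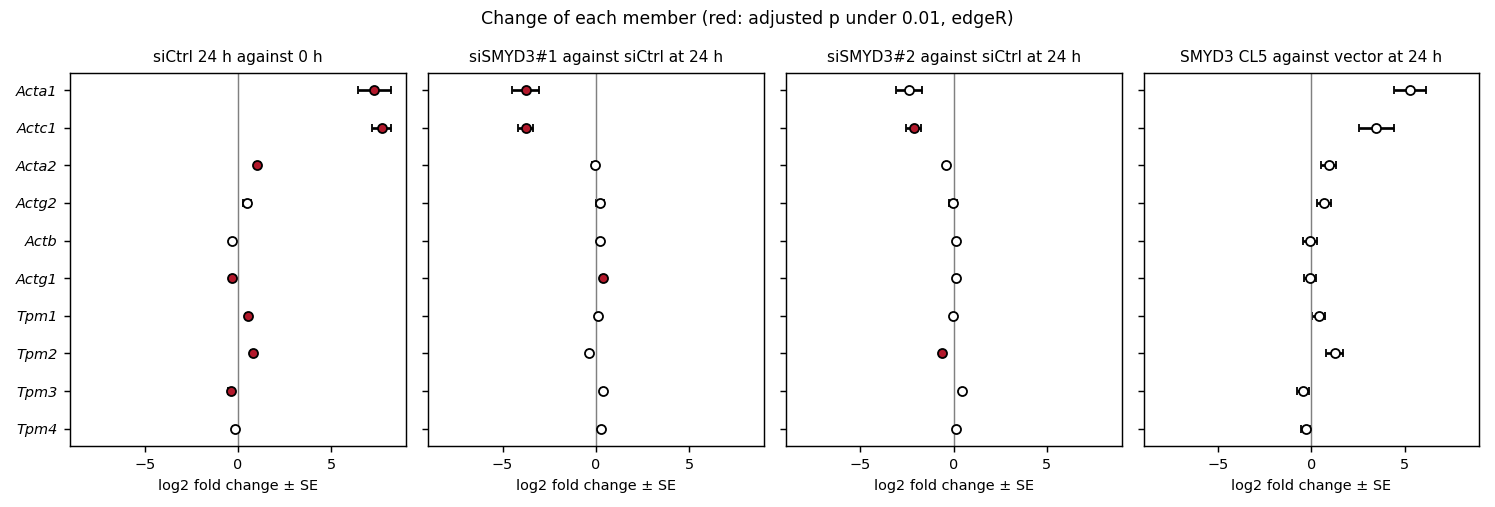
Fitted log2 fold change of each of the 10 genes for siCtrl over time, for each siRNA against Smyd3 at 24 h and for SMYD3 CL5 at 24 h, with bars of 1 standard error; red symbols passed the threshold. Acta1 and Actc1 lie far from 0, and the other 8 genes lie much nearer to it.

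Among the smooth muscle actins, Acta2 (19:34241090-34255590, reverse strand) was the abundant one. In siCtrl cells it was at 721 and 942 CPM in the NucleoSpin libraries and 2169 CPM in the TRIzol library at 0 h, and at 1734, 1880 and 3893 CPM at 24 h. The time points overlapped, since the TRIzol library at 0 h exceeded both NucleoSpin libraries at 24 h, but Acta2 was higher at 24 h in 3 of 3 pairs. Its fitted rise was 2.05-fold (log2 fold change 1.04 ± 0.13, adjusted p = 4.9e-06). With siSMYD3#1 it rose 1.67-fold, from 831, 1029 and 2832 CPM to 1442, 1633 and 4797 CPM (0.74 ± 0.13, adjusted p = 0.000233). With siSMYD3#2 the values were 945, 1077 and 2543 CPM at 0 h and 1252, 1127 and 3874 CPM at 24 h, which did not pass (0.36 ± 0.13, adjusted p = 0.039).

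Acta2 at 24 h was not called against siCtrl with siSMYD3#1 (-0.06 ± 0.13, 95% interval -0.32 to 0.19, adjusted p = 0.837) or with siSMYD3#2 (-0.41 ± 0.13, adjusted p = 0.0547). Over the NucleoSpin libraries alone it was lower with siSMYD3#2 (-0.61, adjusted p = 0.00466). Actg2 (6:83512905-83536265, reverse strand), the enteric smooth muscle actin, made up 0.804 to 0.868% of actin mRNA per length in siCtrl cells at 24 h, where Acta2 made up 26.7 to 46.7%, and gave no call in the comparisons of siRNA or time. In siCtrl cells it was at 21.7, 26.2 and 52.5 CPM at 0 h and 39.2, 40.2 and 48.3 CPM at 24 h, with a log2 fold change of 0.48 ± 0.21 (adjusted p = 0.0738). Its rise was called in the NucleoSpin libraries alone (0.70, adjusted p = 0.00113), and also without the siCtrl TRIzol library at 24 h alone (0.77, adjusted p = 0.000504). The TRIzol library was higher than the mean of its NucleoSpin partners in 6 of 6 conditions for Acta2 (2.15 to 3.26 times) and for Actg2 (1.22 to 2.88 times).

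The cytoplasmic actins moved little. Actb (5:142903115-142906754, reverse strand) was at 3250, 3834 and 4147 CPM in siCtrl cells at 0 h and at 2914, 3039 and 3058 CPM at 24 h. Every 24 h library was below every 0 h library, and the fitted difference of -0.31 ± 0.10 did not pass the threshold (adjusted p = 0.0143). Without 1 NucleoSpin library at 0 h it did (-0.39, adjusted p = 0.00709). Actg1 (11:120345690-120348542, reverse strand) was at 1752, 2119 and 2430 CPM at 0 h and 1493, 1651 and 1898 CPM at 24 h, a fall that passed (-0.32 ± 0.09, adjusted p = 0.00919). Actg1 also fell with siSMYD3#2, from 2074, 2294 and 2504 CPM to 1749, 1752 and 1934 CPM (-0.34 ± 0.09, adjusted p = 0.00936). With siSMYD3#1 its change over time was -0.06 ± 0.09 (adjusted p = 0.614), and at 24 h it stood 1.31-fold above siCtrl, at 2071, 2012 and 2502 CPM (0.38 ± 0.09, adjusted p = 0.00943).

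These Actg1 calls lie at the threshold. Each time call was lost in 5 of 6 fits without 1 library (adjusted p = 0.014 to 0.0581 in siCtrl and 0.0161 to 0.0418 with siSMYD3#2). The call at 24 h with siSMYD3#1 was lost in 6 of 6 (adjusted p = 0.0164 to 0.0675). In the NucleoSpin libraries alone the 3 calls were also missed, with adjusted p = 0.0163, 0.0111 and 0.0125 at log2 fold changes of -0.32, -0.35 and 0.38. Actg1 shares 147 exon bases on its own strand with Gm23419 and Mir6935, and the counting of such reads is not given in the sources used here.

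Of the 4 tropomyosins, Tpm2 (4:43514711-43523765, reverse strand), the β-tropomyosin of muscle, had the largest change between time points in siCtrl cells. In siCtrl cells it rose 1.75-fold, from 211, 228 and 245 CPM at 0 h to 432, 410 and 353 CPM at 24 h, with no overlap (0.81 ± 0.10, adjusted p = 5.55e-06). With siSMYD3#1 it went from 254, 264 and 308 CPM to 309, 284 and 323 CPM, which was not called (0.15 ± 0.10, adjusted p = 0.253). With siSMYD3#2 it went from 240, 297 and 250 CPM to 257, 252 and 271 CPM (log2 fold change -0.015 ± 0.102, adjusted p = 0.93). At 24 h every library with either siRNA was below every siCtrl library. The difference was called for siSMYD3#2 (1.53-fold lower, -0.62 ± 0.10, adjusted p = 0.000938) and missed for siSMYD3#1 (1.31-fold lower, adjusted p = 0.0182). The siSMYD3#2 call was lost without 1 siCtrl NucleoSpin library (-0.54, adjusted p = 0.0112) and without 1 siSMYD3#2 NucleoSpin library (-0.60, adjusted p = 0.0102). The siSMYD3#1 difference passed in the NucleoSpin libraries alone (-0.50, adjusted p = 0.0017) and without the siCtrl TRIzol library (-0.48, adjusted p = 0.0048).

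Tpm1 (9:67022590-67049406, reverse strand), the α-tropomyosin gene with 21 annotated transcripts, rose 1.43-fold in siCtrl cells, from 725, 739 and 1167 CPM to 1053, 1032 and 1681 CPM (0.52 ± 0.09, adjusted p = 0.000116). It rose 1.25-fold with siSMYD3#1 (0.32 ± 0.09, adjusted p = 0.00753), a call lost in 5 of 6 fits without 1 library (adjusted p = 0.0202 to 0.0799) and in the NucleoSpin libraries alone (adjusted p = 0.0749). With siSMYD3#2 it did not pass (0.21 ± 0.09, adjusted p = 0.0699). Tpm1 was not called against siCtrl at 24 h with siSMYD3#1 (0.11 ± 0.09, adjusted p = 0.497) or siSMYD3#2 (-0.06 ± 0.09, adjusted p = 0.762). As with Acta2, the TRIzol library of each condition was the highest for Tpm1, 1.47 to 1.98 times the mean of its partners.

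Tpm3 (3:90072649-90100902, forward strand), which gives slow-muscle and cytoskeletal tropomyosins, moved the other way. In siCtrl cells it fell from 322, 350 and 343 CPM at 0 h to 263, 227 and 277 CPM at 24 h (-0.40 ± 0.11, adjusted p = 0.00799), and with siSMYD3#2 from 475, 531 and 379 CPM to 364, 346 and 331 CPM (-0.41 ± 0.11, adjusted p = 0.00979). With the replicate number as a block these adjusted p became 0.0109 and 0.0136, so neither call held. They were also lost in 5 of 6 fits without 1 library (adjusted p = 0.013 to 0.0645 and 0.0232 to 0.0686). The siSMYD3#1 values, 440, 463 and 406 CPM at 0 h and 336, 297 and 371 CPM at 24 h, gave an adjusted p of 0.0124 (-0.38 ± 0.11), and of 0.00281 without the TRIzol library at 24 h (-0.51). In the NucleoSpin libraries alone all 3 passed (-0.47, -0.53 and -0.53, adjusted p = 0.000922, 0.000343 and 0.000474).

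At 24 h, Tpm3 was 1.31-fold above siCtrl with siSMYD3#1 (0.39 ± 0.11, adjusted p = 0.032) and 1.35-fold above with siSMYD3#2 (0.44 ± 0.11, adjusted p = 0.0206), with no overlap between libraries and no call. The second of these passed in the NucleoSpin libraries alone (0.53, adjusted p = 0.0015). Tpm4 (8:72134975-72153142, forward strand) was at 1202, 1235 and 1100 CPM in siCtrl cells at 0 h and 1047, 1139 and 962 CPM at 24 h (-0.17 ± 0.08, adjusted p = 0.123). Its largest siRNA difference at 24 h was 0.265 ± 0.085 with siSMYD3#1 (log2 fold change, adjusted p = 0.0514).

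Levels can be compared between genes only per length, here as CPM per kb of exon sequence. This length merges the exons of all annotated transcripts of a gene. It is 6485 bases for Tpm1 and 6085 for Tpm3, against 2203 for Tpm4, so the order of the tropomyosins depends on it. In siCtrl cells at 0 h the order of the means was Actb 1397 ± 170 (SD, n = 3), Actg1 790 ± 128, Acta2 581.5 ± 355, Tpm4 535 ± 31.9, Tpm1 135 ± 38.8, Tpm2 78.4 ± 5.87, Tpm3 55.5 ± 2.39, Actg2 21.5 ± 10.7, Acta1 1.48 ± 1.28 and Actc1 0.795 ± 0.541 CPM per kb. The means of Acta2 and its neighbours Actg1 and Tpm4 lay within their spread, as did those of Acta1 and Actc1, but the order within a library went with extraction. Acta2 was at 328 and 429 in the NucleoSpin libraries, below Actg1 (659 and 797) and Tpm4 (545.5 and 561). In the TRIzol library it was at 987.5, above Actg1 (914) and Tpm4 (499). At 24 h Acta2 was at 1140 ± 549 and Actb at 1121 ± 29.1, followed by Actg1 at 632 ± 76.9, Tpm4 at 476 ± 40.2, Acta1 at 201 ± 114, Tpm1 at 194 ± 56.9, Actc1 at 182 ± 108, Tpm2 at 137 ± 14.1, Tpm3 at 42.0 ± 4.27 and Actg2 at 27.3 ± 3.21 CPM per kb. The means of the pair at the top, and of Acta1, Tpm1, Actc1 and Tpm2 in the middle, lay within each other's spread. Acta2 was below Actb in the NucleoSpin libraries (790 and 856 against 1088 and 1134) and above it in the TRIzol library (1773 against 1141). Against 0 h, the striated pair had passed Tpm3 and Actg2. Acta1 was above Tpm1 in the NucleoSpin libraries (231 and 297 against 162 and 159) and below it in the TRIzol library (75.1 against 259). Actc1 was at 209 and 275 in the NucleoSpin libraries and 63.5 in the TRIzol library.

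As shares of all actin mRNA per length, the striated actins made up 0.0814% and 0.0702% in the siCtrl NucleoSpin libraries and 0.0898% in the TRIzol library at 0 h. At 24 h these shares were 15.1%, 17.8% and 3.65%. The mean went from 0.0805% to 12.2%, and the exact permutation test over libraries gave p = 0.1, two-sided, the smallest p that 3 against 3 allows. With siSMYD3#1 the 24 h shares were 1.26%, 1.24% and 0.336% (mean 0.945%), and with siSMYD3#2 they were 2.93%, 2.6% and 2.09% (mean 2.54%). Both sets lay below all siCtrl libraries (exact permutation p = 0.1 for each). In bulk RNA, fewer cells that make striated actin and less of its mRNA per cell cannot be told apart.

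The cytoplasmic share went from a mean of 79.5% to 53.5% in siCtrl cells (exact permutation p = 0.1) and stood at 65.6% with siSMYD3#1 and 67.0% with siSMYD3#2 at 24 h (exact permutation p = 0.3 against siCtrl for each). In pairs of the same replicate number it was lower at 24 h than at 0 h in 3 of 3 siCtrl pairs, and higher than siCtrl at 24 h in 3 of 3 pairs for each siRNA (by 3.45 to 17.1 percentage points with siSMYD3#1 and 1.97 to 21.3 with siSMYD3#2). The exact permutation test within pairs, added after seeing the data, gave p = 0.25 for each, the smallest that 3 pairs allow. The smooth muscle share was 15.4%, 16.7% and 29.3% in siCtrl at 0 h and 28.1%, 27.5% and 47.5% at 24 h (exact permutation p = 0.3), higher in 3 of 3 pairs by 10.8 to 18.2 percentage points (p = 0.25 in the exact permutation test within pairs). At 24 h it was 24.8%, 28.2% and 47.4% with siSMYD3#1 and 23.0%, 21.4% and 47.1% with siSMYD3#2 (exact permutation p = 0.9 and 0.5 against siCtrl), lower than siCtrl in 2 of 3 and 3 of 3 pairs (p = 0.75 and 0.25 in the exact permutation test within pairs). The TRIzol library held the largest smooth muscle share of every siRNA condition. Within the striated pair, Acta1 over Actc1 per length was between 1.08 and 1.47 in all 9 libraries of 24 h, whatever the siRNA. Within the tropomyosins, the mean Tpm2 share went from 9.75% ± 0.519 (SD, n = 3) at 0 h to 16.1% ± 1.98 at 24 h in siCtrl, and at 24 h was 11.2% ± 1.2 with siSMYD3#1 and 10.4% ± 0.351 with siSMYD3#2. By this measure Tpm4 was the largest part in every siRNA library, with 50.6 to 69.7% of tropomyosin mRNA. That rank depends on the merged exon length, 6485 bases for Tpm1 and 2203 for Tpm4. In CPM the siCtrl means of Tpm1 and Tpm4 were 877 and 1179 at 0 h, and 1256 and 1050 at 24 h.

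**Figure D3:**
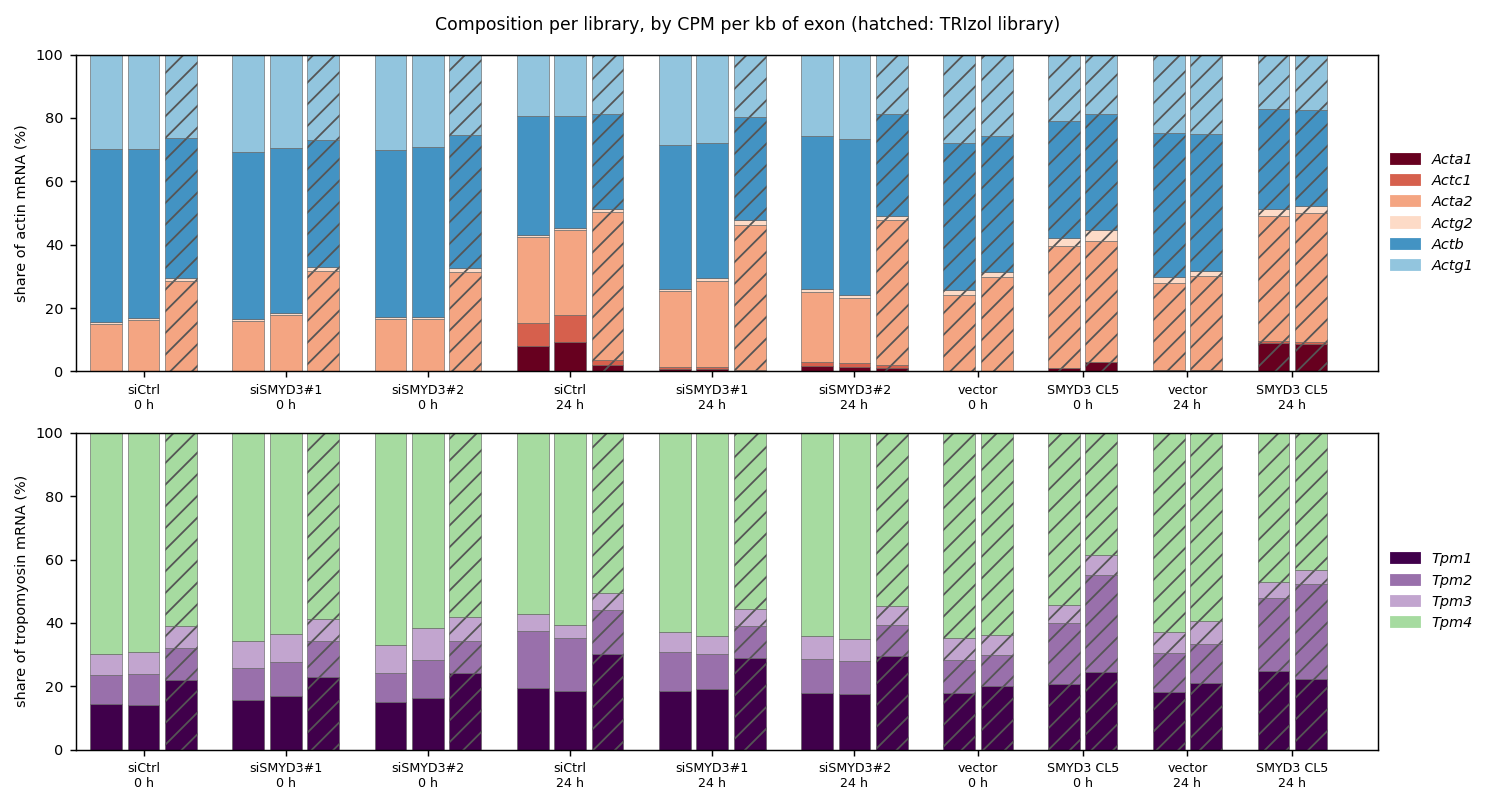
Make-up of actin mRNA and of tropomyosin mRNA per length in each of the 26 libraries, as stacked shares in percent that sum to 100 within a library. The striated part is visible in the siCtrl libraries at 24 h, up to 17.8%, and in SMYD3 CL5, up to 9.73%, and is 2.93% or less in the libraries of either siRNA against Smyd3.

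Of 3 fibroblast markers, Col1a1, a collagen gene, was higher with siSMYD3#1 at 24 h, at 1390 to 1750 CPM in the NucleoSpin libraries and 658 CPM in the TRIzol library, against 242 to 304 and 280 CPM in siCtrl and 240 to 315 and 321 CPM with siSMYD3#2. Pdgfra was at 8.63 to 10.5 and 11.7 CPM with siSMYD3#1, 5.36 to 5.79 and 8.3 CPM in siCtrl and 3.88 to 5.6 and 7.37 CPM with siSMYD3#2, and Thy1 was at 0 in all 18 libraries. The sum of the 3 at 24 h, 669 to 1760 CPM with siSMYD3#1, 248 to 309 CPM in siCtrl and 246 to 329 CPM with siSMYD3#2, was thus nearly all Col1a1. The part of these markers in the levels of the striated actins was not tested.

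In the overexpression experiment Acta1 had the largest differences between the lines at both time points. Vector cells had 1.66 and 3.26 CPM at 0 h and 12.9 and 14.65 CPM at 24 h. SMYD3 CL5 had 39.6 and 251 CPM already at 0 h and 485 and 570 CPM at 24 h. Both CL5 libraries exceeded both vector libraries at each time point, by 38.3-fold at 24 h (5.26 ± 0.86, adjusted p = 0.0212) and 58.7-fold at 0 h (5.88 ± 0.90, adjusted p = 0.0154), and neither passed the threshold of 0.01. None of the 10 genes was called in either comparison, against 0.964% of all genes at 24 h and 1.07% at 0 h. At an unadjusted p under 0.05 there were 3 of the 10 at 24 h and 5 at 0 h, against 14% and 18.3% of all genes, and DESeq2 called 2 at each, against 3.89% and 5.2%.

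Actc1 followed at a lower level, with 0.22 and 0.292 CPM in vector cells and 0.404 and 5.045 CPM in SMYD3 CL5 at 0 h, and 2.305 and 3.99 CPM against 36.1 and 34.6 CPM at 24 h. The 24 h difference was 11.2-fold (3.48 ± 0.92, adjusted p = 0.108). Acta1 over Actc1 per length was 5.87 and 3.87 in vector cells and 14.2 and 17.3 in SMYD3 CL5 at 24 h, above every knockdown library of that time. The 2 experiments differ in cells and passage, and all 8 overexpression libraries were extracted with TRIzol. In the knockdown libraries at 24 h the TRIzol library had the highest ratio of each condition (1.18 in siCtrl, 1.47 with siSMYD3#1 and 1.28 with siSMYD3#2). As a share of actin mRNA the striated actins were 0.347% and 0.417% in vector cells and 9.73% and 9.23% in SMYD3 CL5 at 24 h (exact permutation p = 0.333, the smallest that 2 against 2 allows).

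**Figure D4:**
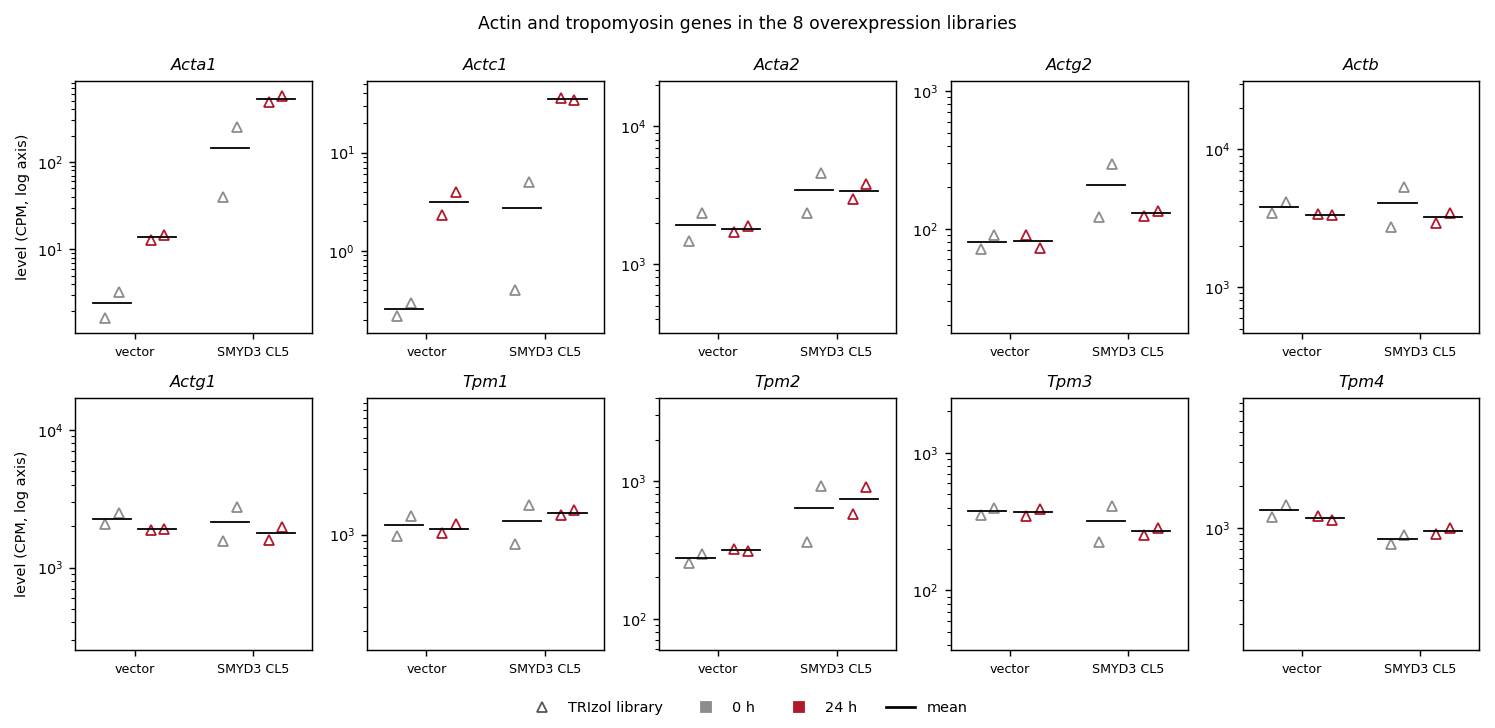
Level of each of the 10 genes in the 8 overexpression libraries (CPM, log axis) by cell line and time point; each triangle is 1 library and the bar is the mean. Acta1 in SMYD3 CL5 at 0 h already lies above vector cells at 24 h, and for Acta1 and Actc1 the CL5 libraries at 0 h are farther apart on this axis than those of the other groups.

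Other members differed less between the lines. The largest of their differences was in Actg2 at 0 h, at 122 and 295 CPM in CL5 against 70.9 and 90.4 CPM in vector cells (1.37 ± 0.40, adjusted p = 0.125). At 24 h Actg2 was at 125 and 135 CPM against 90.75 and 72.7 CPM (0.67 ± 0.40, adjusted p = 0.555). Tpm2 at 0 h differed by 1.215 ± 0.447 (adjusted p = 0.208). Tpm2 was at 319 and 311 CPM in vector cells and 576 and 907 CPM in SMYD3 CL5 at 24 h (log2 fold change 1.235 ± 0.447, adjusted p = 0.255), and its share of tropomyosin mRNA was 12.5% and 12.3% against 23.1% and 29.9%. Acta2 was at 1700 and 1883 CPM against 2990 and 3819 CPM at 24 h (0.93 ± 0.40, adjusted p = 0.361). Tpm3 and Tpm4 were lower in CL5 at 24 h without overlap, Tpm3 at 255 and 282 CPM against 349 and 389 CPM (-0.46 ± 0.31, adjusted p = 0.618) and Tpm4 at 894 and 994 CPM against 1209 and 1133 CPM (-0.31 ± 0.24, adjusted p = 0.689). Actb and Actg1 overlapped between the lines at both times, with log2 fold changes between -0.09 and 0.09. Tpm4 at 0 h was 765 and 884 CPM in CL5 and 1198 and 1476 CPM in vector cells (-0.70 ± 0.24, adjusted p = 0.188).

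The CL5 libraries at 0 h lay far apart in both striated actins, and the gap was not limited to them. Actb was at 2738 and 5381 CPM, Acta2 at 2354 and 4606 CPM, Tpm2 at 359 and 924 CPM and Tpm4 at 765 and 884 CPM. Together the 10 genes took 0.967% and 1.62% of the counts of these libraries. Without the library with the lower values, 4 members were called at 0 h, all higher in CL5: Acta1 (6.71, adjusted p = 6.91e-05), Actc1 (4.33, 0.000803), Actg2 (1.93, 0.00136) and Tpm2 (1.80, 0.0034). Without the other library 1 was called, Acta1 (4.02, adjusted p = 0.000497). In these fits the remaining library was assumed to vary like the other groups. Time gave no call in either line, with 0 of 17835 genes called in each. Acta1 was 5.55-fold higher at 24 h in vector cells (2.47 ± 0.78, adjusted p = 0.537) and 3.63-fold higher in SMYD3 CL5 (1.86 ± 0.74, adjusted p = 0.733), neither past the threshold. The CL5 value was 1.05 without the 0 h library with the lower level and 3.72 without the other, neither past the threshold. Actc1 was 12.1-fold higher in vector cells and 13.0-fold in SMYD3 CL5 (3.60 ± 1.05 and 3.70 ± 0.94, adjusted p = 0.496 and 0.462), and the CL5 value passed without either of its 0 h libraries (2.79 and 6.43, adjusted p = 0.00458 and 0.0057). At an unadjusted p under 0.05 there were 1256 genes (7.04%) for vector and 1137 (6.38%) for CL5, 2 of the 10 members in each, and DESeq2 called 1 member in each, against 0.7% and 0.558% of all genes. The difference of the CL5 effect between times was also called for 0 genes and 0 members by edgeR (312 genes or 1.75% and 0 members at an unadjusted p under 0.05, 0 members by DESeq2). Of the fibroblast markers, Col1a1 was at 9.29 to 37.2 CPM at 0 h and 11.2 to 17.3 CPM at 24 h in SMYD3 CL5, against 186 to 404 and 542 to 570 CPM in vector cells. Pdgfra did not move with it, at 6.94 to 30.3 and 21.2 to 21.4 CPM in CL5 and 10 to 12.7 and 13.2 to 18.7 CPM in vector cells, and Thy1 was at or below 0.0512 CPM. The sum was 32.5 to 44.2 CPM in CL5 and 199 to 583 CPM in vector cells, and the part of these markers in the actin differences was not tested.

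Genes whose products work with these actins were counted in 4 lists, of 77 genes in all. Of 21 tested genes of the striated thin filament and its anchoring, 17 rose and 0 fell in siCtrl between 0 h and 24 h, where 14.6% and 14.8% of all genes did. Their median was 2.09 on the log2 scale, and the median of all genes was 0.03. Tnnt3, the fast troponin T that ties troponin to tropomyosin, rose 55.6-fold (5.80 ± 0.23, adjusted p = 4.55e-11), and Lmod3, a leiomodin that nucleates actin filaments in muscle, rose 72.2-fold from 0.0727 CPM (6.17 ± 0.55, adjusted p = 1.16e-07). Of the same 21 genes, 0 were higher and 11 lower with siSMYD3#1 than with siCtrl at 24 h (median -1.45), and 0 were higher and 9 lower with siSMYD3#2 (median -1.29). Of all genes 2.94% and 2.04% were lower in these comparisons. Lmod3 was lower with each (-3.67 ± 0.45 and -2.20 ± 0.41, adjusted p = 3.12e-05 and 0.00237). Neb, the thin filament ruler nebulin, was 7.49-fold lower with siSMYD3#1 (adjusted p = 0.00377). Tnni1, the slow troponin I, was lower with both, by a log2 fold change of -2.25 with siSMYD3#1 (adjusted p = 7.81e-05) and 4.15-fold with siSMYD3#2 (adjusted p = 0.000419). In SMYD3 CL5 4 of the 21 were higher than in vector at 24 h and 0 lower (median 2.735 against 0.015 over all genes, of which 0.964% were called), and edgeR called 0 of them in each of the 4 fits that left out 1 library. Among the 4 were Lmod2 at 8.83 against 0.154 CPM (5.81 ± 0.66, adjusted p = 0.00856) and Lmod3 at 17.99 against 0.574 CPM (4.95 ± 0.32, adjusted p = 0.00084). At 0 h 3 were higher, among them Lmod3 (6.36 ± 0.38, adjusted p = 0.000653) and Nrap, which anchors actin at the cell end (3.03 ± 0.34, adjusted p = 0.00493), where 1.07% of all genes were called. This count was 0 without either vector library and 13 or 10 without a CL5 library.

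Smooth muscle and stress fibre genes showed 6 of 17 raised and 0 lowered in siCtrl over time (median 0.29), where 14.6% and 14.8% of all genes were, with Mylk, the myosin light chain kinase, at 4.34-fold (2.12 ± 0.22, adjusted p = 6.32e-07) and Myl9, its substrate, at 3.43-fold (1.78 ± 0.21, adjusted p = 8.54e-06). At 24 h 3 of them were higher with siSMYD3#1 (median 0.23) and 2 with siSMYD3#2 (median -0.1), where 2.91% and 1.66% of all genes were, and 0 were lower. Without 1 library the counts ranged from 2 to 4 and from 0 to 2, and the second was 0 without either siCtrl NucleoSpin library or 1 of siSMYD3#2. Cald1, the actin-binding caldesmon, was 1.46-fold higher with siSMYD3#1 and 1.40-fold with siSMYD3#2 (adjusted p = 0.000256 and 0.00155). Cnn2, a calponin, was 1.47-fold higher with siSMYD3#1 (adjusted p = 0.000797). Actn1, a non-muscle α-actinin, was higher with both, by a log2 fold change of 0.41 with siSMYD3#1 (adjusted p = 0.00201) and 1.29-fold with siSMYD3#2 (adjusted p = 0.00673). In SMYD3 CL5 against vector at 24 h edgeR called 0 of the 17, with 5 at an unadjusted p under 0.05 and 3 by DESeq2.

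Among 27 genes of cytoplasmic actin dynamics, 4 rose and 4 fell in siCtrl over time (median -0.13), a share near that of all genes (14.6% raised and 14.8% lowered). Pfn2, a profilin, rose 3.98-fold (adjusted p = 5.03e-05) and Tmsb4x, the monomer-binding thymosin β4, 1.67-fold (adjusted p = 0.00377). Diaph3, a formin, fell 2.01-fold (adjusted p = 3.98e-08) and Tagln2, a transgelin, 1.64-fold (adjusted p = 5.82e-05). At 24 h 3 were higher with siSMYD3#1 and 2 with siSMYD3#2, and 0 were lower, where 2.91% and 1.66% of all genes were higher. The siSMYD3#1 count was 0 or 1 when any of the 4 NucleoSpin libraries of the comparison was left out. Actr2, a subunit of the Arp2/3 complex that branches filaments, was higher with both (1.35-fold and 1.64-fold, adjusted p = 0.00604 and 0.000235). Tmod3, which caps pointed ends, was 1.32-fold higher with siSMYD3#1 (adjusted p = 0.00506). Diaph3 was higher with both, by a log2 fold change of 0.36 with siSMYD3#1 (adjusted p = 0.00606) and 1.43-fold with siSMYD3#2 (adjusted p = 0.00065). In SMYD3 CL5 at 24 h edgeR called 0 of the 27 (2 at an unadjusted p under 0.05, 1 by DESeq2).

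Of 8 tested genes of actin-responsive transcription, in siCtrl over time 1 rose (Elk1, a ternary complex factor, 1.26-fold, adjusted p = 0.00555) and 1 fell (Srf, the serum response factor itself, 1.32-fold, adjusted p = 0.000974). These shares were near those of all genes (14.6% raised and 14.8% lowered). With siSMYD3#1 at 24 h Fhl2, a LIM-domain cofactor, was 1.59-fold higher (adjusted p = 3.03e-05) and Mrtfb, an actin-sensing coactivator of serum response factor, 1.46-fold lower (adjusted p = 0.00322), where 2.91% of all genes were higher and 2.94% lower. Without 1 library each of these counts of 2 ranged from 1 to 3. With siSMYD3#2 Fhl2 was 1.45-fold higher (adjusted p = 0.00052) and 0 were lower, where 1.66% of all genes were higher and 2.04% lower. SMYD3 CL5 at 24 h gave 0 of 8 by edgeR, with 1 at an unadjusted p under 0.05 and 1 by DESeq2.

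**Figure D5:**
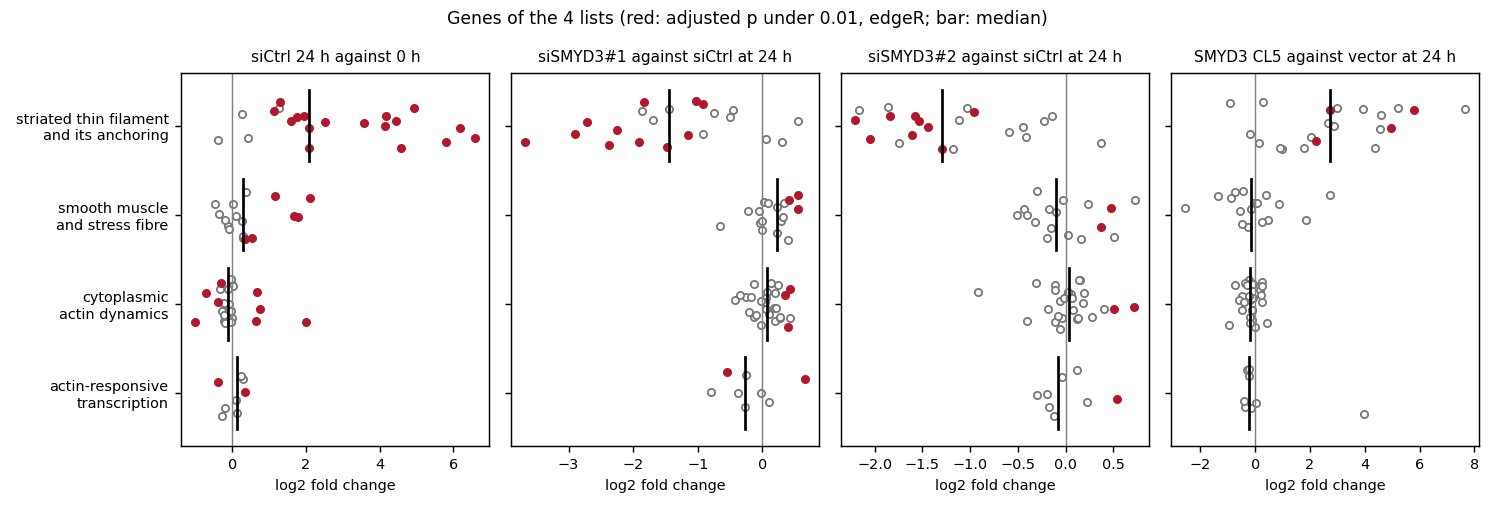
Log2 fold change of each tested gene of the 4 lists in the comparisons the text leads with; each point is 1 gene and red points passed the threshold. Points of the striated list lie mostly above 0 for siCtrl over time, below 0 for both siRNAs at 24 h and above 0 for SMYD3 CL5, while those of the other lists lie nearer to 0.

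Likeness to other genes was measured as the distance between mean log2 levels over the 10 conditions, centred in each experiment, among 15597 genes tested in both. Nearest to Acta1 were Mylpf (distance 0.771), Myog (1.16) and Mymk (1.35), and Actc1 was at rank 15 (3.04). Nearest to Actc1 were Myh3 (1.56), Mybph (2.01) and Myl1 (2.34), with Acta1 at rank 8. Acta2 lay nearest to Gm13986 (0.209), Nrbp2 (0.355) and S100a1 (0.375), and among the members to Tpm2 (rank 242) and Actg2 (rank 279). Actb lay nearest to Fnbp1 (0.113), Faf1 (0.128) and Actr5 (0.139), with Actg1 at rank 25. Genes that changed little have short distances to many others, so the distances of Actb and Acta2 are not comparable in size with those of the striated pair.

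The actin genes are near-identical in their coding parts and have processed copies in the genome, and how reads that fit several places were counted is not given in the sources used here. Of annotated copies, Actg-ps1 had 15 to 282 counts per library, Tpm3-rs7 680 to 3701 and Tpm3-rs2 0 to 1. The counts of Tpm3 and of the actins are uncertain by reads that fit such copies. Tpm4 overlaps Gm26586 on the opposite strand over 134 exon bases.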

How the data were processed

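RNA-Seq was performed by the authors on 26 libraries of C2C12 cells, from which reads were aligned to GRCm38 with HISAT2 2.1.0 and counted per gene with featureCounts of Subread 1.6.3 after FastQC 0.11.5, as the submitters' processing notes list them. The deposited values are raw counts per gene, whole numbers without normalization. The strand setting and the treatment of reads with several matches are not given in the sources used here. Of 55341 genes in each file, 54495 were named by GENCODE M21. Total counts set the precision, from 14315193 to 67853386 per library.

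Counts were tested in R 4.3.3 with edgeR 4.0.16 (filterByExpr, TMM, robust quasi-likelihood fit, Benjamini-Hochberg adjustment over all genes, threshold 0.01). Knockdown libraries (18 in 6 groups, 15820 genes) were fitted with extraction as a term, at a common dispersion of 0.0159. Overexpression libraries (8 in 4 groups, 17835 genes) were fitted by group, at 0.0903. Standard errors are the size of the log2 fold change over the square root of F. The scripts were tested on simulated data. Shares of actin or tropomyosin mRNA are counts per kb of merged exons and were compared by exact two-sided permutation over libraries, 4 comparisons for each class, without adjustment, and within pairs of the same replicate number in the knockdown experiment.

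Groups and extraction came from the sample labels, and replicate numbers from the study's sample list. In the knockdown experiment, libraries of the same number deviated together from their group means (r = 0.335 to 0.898 in 45 pairs, median 0.665). Pairs of different numbers had r = -0.832 to 0.663 (90 pairs, median -0.6). The TRIzol library carried the same number in every condition, so these values do not separate a pairing by number from extraction or passage. A fit with the replicate number as a block was an alternative, as were DESeq2 1.42.0, RLE size factors, no filter on low counts, no extraction term, the NucleoSpin libraries alone and leaving out each replicate. The study calls its replicates biological, and nothing more is said of separate cultures, so p-values measure the spread between these samples.

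The members and lists were chosen with earlier results of these data known. Named are the 10 members, Smyd3, annotated copies of members, the 3 nearest genes to Acta1, Actc1, Acta2 and Actb, and, per list and comparison, up to 2 called genes with the largest rise and 2 with the largest fall at a mean of at least 1 CPM.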

Additional observations from a re-analysis of the deposited data

How the results depend on the processing

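Changes of members that lay over 2 standard errors from 0, or were called under any setting, gave 816 refitted values, of which 1 turned direction: Actg2 in SMYD3 CL5 over time, at -0.68, was at 0.079 without 1 of the 0 h libraries and at -1.204 without the other. DESeq2 called 8, 5, 4, 4 and 3 members where edgeR called 7 (siCtrl time), 4 (siSMYD3#1 time), 4 (siSMYD3#2 time), 3 (siSMYD3#1 at 24 h) and 2 (siSMYD3#2 at 24 h). The shares of all genes that DESeq2 called there were 28.2%, 30.6%, 22.5%, 8.27% and 6.91%. DESeq2 called 1 member for each of the 2 siRNA effects between times, 2 for SMYD3 CL5 at each time, and 1 for time in each line, where edgeR called 0. Without the extraction term the counts were 3, 1 and 2 for siCtrl, siSMYD3#1 and siSMYD3#2 time (10.6%, 6.66% and 3.69% of all genes), and 1 and 0 for siSMYD3#1 and siSMYD3#2 at 24 h (0.645% and 0.114%). Without the filter on low counts the members called were 5 for siSMYD3#2 at 24 h, 2 between the siRNAs, 1 and 1 at 0 h, 3 and 4 for the effects between times, 3 and 4 for SMYD3 CL5 at 24 h and 0 h, and 2 for time in each line. The shares of all genes were 3.71%, 3.47%, 1.67% and 0.66%, 0.879% and 0.73%, 3.2% and 3.86%, and 0.629% (vector) and 0.67% (CL5), in that order. In the NucleoSpin libraries alone the members called were 5 for siSMYD3#2 at 24 h, 2 between the siRNAs, 1 for siSMYD3#2 at 0 h, and 3 and 3 for the effects between times. There the shares of all genes were 8.38%, 9.76%, 0.907%, and 1.05% and 1.15%.

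The replicate block gave 6 members for siCtrl time and 3 for siSMYD3#2 time, both by the loss of Tpm3, and 1 (Acta1) for SMYD3 CL5 at each time, with adjusted p = 0.00634 at 24 h and 0.00606 at 0 h, and it changed no other member's call. The block called 28.2%, 17.8%, 1.28% and 1.3% of all genes in these comparisons, in that order. Of the striated list it called 10 genes for SMYD3 CL5 at 24 h and 6 at 0 h, where the unblocked fit called 4 and 3 and DESeq2 14 and 15. The overexpression libraries share only a number (r = -0.057 to 0.546 in 12 pairs of the same number). The cause of these shifts was not tested.

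Without 1 replicate, members called ranged from 5 to 7 for siCtrl time, 2 to 4 and 1 to 4 for siSMYD3#1 and siSMYD3#2 time, 1 to 3 and 0 to 2 for siSMYD3#1 and siSMYD3#2 at 24 h, 0 to 0 between the siRNAs, 0 to 0 and 0 to 1 at 0 h, 0 to 1 for each effect between times, 0 to 0 and 0 to 4 for SMYD3 CL5 at 24 h and 0 h, 0 to 0 and 0 to 2 for time in vector and CL5, and 0 to 0 for the CL5 effect. RLE size factors and the shares under other settings stayed on the same side or within 1.5 times, apart from 3 single-member calls lost with RLE. The low counts at 0 h, down to 7 per library for Acta1 and 3 for Actc1, limit the fold changes of these genes.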
